A study of Mus musculus with 4 samples.

Results

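The 10 genes examined in late two-cell mouse embryos encode the protein core of the small nucleolar ribonucleoproteins (snoRNPs) and the scaffold of the nucleolus. They were chosen by name: Fbl, Nop56 and Nop58 of the box C/D snoRNP, Dkc1, Gar1, Nhp2 and Nop10 of the box H/ACA snoRNP, and Ncl, Npm1 and Nolc1 of the nucleolar scaffold. All 10 are among the 24411 genes listed in each library and among the 13549 genes that passed the filter on low counts. Polyadenylated RNA was sequenced from embryos of the ICR strain that had been fertilised in vitro, cultured in KSOM and collected at 36 h after insemination (hpi). Control embryos (2 libraries) received DMSO, the solvent, and 10074-G5-treated embryos (2 libraries) received 6 µM of 10074-G5, a small molecule that binds MYC and prevents its pairing with MAX. The labels place the start of the treatment at 3 hpi and the design text at 6 hpi. Each library was made from a pool of 10 whole embryos, so that fewer contributing cells and less RNA per cell cannot be told apart, and the p-values measure the spread between such pools.

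A snoRNP is a guide RNA bound by a fixed set of proteins, and the guide pairs with ribosomal RNA to direct a chemical mark to 1 nucleotide. Box C/D snoRNPs place methyl groups on the ribose, with fibrillarin (Fbl) as the enzyme and Nop56 and Nop58 as the paired scaffold, and box H/ACA snoRNPs convert uridine to pseudouridine, with dyskerin (Dkc1) as the enzyme and Gar1, Nhp2 and Nop10 as its partners. The H/ACA proteins also bind the telomerase RNA. Nucleolin (Ncl), nucleophosmin (Npm1) and Nolc1 (Nopp140) hold the nucleolus together and chaperone ribosomal RNA, ribosomal proteins and snoRNPs. In the early mouse embryo the compact nucleolus precursor bodies are remodelled into working nucleoli from the two-cell stage onwards, and several of these genes are described in other cells as direct targets of MYC.

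Several of the genes carry guide RNAs in their own introns. The GENCODE M21 annotation (GRCm38) places 13 snoRNAs inside introns of 4 of the 10 genes, with 5 in Nop56, 4 in Nop58, 3 in Ncl and 1 in Dkc1. Those shown are examples of both guide classes from the 3 genes with the most snoRNAs, and Nop56 and Nop58 are themselves proteins of the box C/D particle. They are Snord110 in intron 3 of Nop56 (chr2:130275506-130275573, plus strand), Snord11 in intron 9 of Nop58 (chr1:59704790-59704873, plus strand), and Snord82 in intron 5 (chr1:86356261-86356330, minus strand) and Snora75 in intron 12 (chr1:86351169-86351301, minus strand) of Ncl. Capitals mark the core TGATGA of box C and the CTGA of box D in the 3 box C/D guides, and the ACA near the 3′ end of the H/ACA guide. A search for these exact letters found both boxes in 5 of the 13 snoRNAs and the ACA in 2, and the examples were taken from these.
Snord110: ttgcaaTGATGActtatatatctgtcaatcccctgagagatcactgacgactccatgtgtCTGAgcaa
Snord11: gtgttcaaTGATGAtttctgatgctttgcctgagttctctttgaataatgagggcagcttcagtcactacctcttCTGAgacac
Snord82: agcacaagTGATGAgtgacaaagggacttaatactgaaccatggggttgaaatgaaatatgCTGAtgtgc
Snora75: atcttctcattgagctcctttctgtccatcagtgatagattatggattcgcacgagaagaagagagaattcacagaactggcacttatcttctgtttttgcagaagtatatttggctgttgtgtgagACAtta
Of the 13 snoRNAs, 7 are listed in the count tables, and each of them had a count of 0 in every library. The libraries were made from polyadenylated RNA, and snoRNAs carry no poly(A) tail. Whether this accounts for the counts of 0 was not tested. The values below are those of the host and protein mRNAs and do not measure the snoRNAs.

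The promoter windows of RefSeq (GRCm38.p6; 250 bases before to 50 after the annotated start, 300 in all) were searched on both strands for CACGTG, the E-box that MYC and MAX prefer, and for the broader CANNTG, which includes it. A window was given for 8 of the 10 genes, and Fbl and Npm1 had none. CACGTG was in 0 of these 8 windows and in 7.15% of 32851 windows of all genes, and CANNTG was in 5 of 8 and in 72.3% of all. A match is no binding site, and the absence of one says only that these letters are not in this window. The windows of 3 genes are shown, for the gene with the largest difference between the groups (Nhp2, chr11:51619523-51619822, plus strand), for the gene with the smallest (Gar1, chr3:129831347-129831646, minus strand), and for Nolc1 of the scaffold (chr19:46075597-46075896, plus strand), with CANNTG in capitals.
Nhp2: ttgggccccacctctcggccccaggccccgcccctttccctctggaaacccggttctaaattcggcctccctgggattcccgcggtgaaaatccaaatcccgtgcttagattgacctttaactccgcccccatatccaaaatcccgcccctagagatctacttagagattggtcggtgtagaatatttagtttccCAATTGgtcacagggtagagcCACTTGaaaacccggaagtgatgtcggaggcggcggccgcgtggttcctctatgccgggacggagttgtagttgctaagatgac
Gar1: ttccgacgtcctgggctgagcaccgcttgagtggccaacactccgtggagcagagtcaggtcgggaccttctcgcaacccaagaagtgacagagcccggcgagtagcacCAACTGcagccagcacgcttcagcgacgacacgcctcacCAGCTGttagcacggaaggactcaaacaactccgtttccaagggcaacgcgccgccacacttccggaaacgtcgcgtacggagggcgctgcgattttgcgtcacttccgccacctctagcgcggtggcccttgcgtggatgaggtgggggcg
Nolc1: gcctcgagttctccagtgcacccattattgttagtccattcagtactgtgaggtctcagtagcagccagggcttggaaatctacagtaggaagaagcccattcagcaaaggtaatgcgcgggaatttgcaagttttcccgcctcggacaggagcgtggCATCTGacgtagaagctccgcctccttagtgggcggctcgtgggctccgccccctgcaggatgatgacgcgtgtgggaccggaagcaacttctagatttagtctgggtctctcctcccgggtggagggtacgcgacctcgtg
The Nhp2 window held CAATTG and CACTTG, the Gar1 window CAACTG and CAGCTG, and the Nolc1 window CATCTG. The windows of Nop56, Nop58 and Ncl held no CANNTG, that of Nop10 held 2 and that of Dkc1 held 3. The GC content of the 8 windows ran from 45.3% (Nop58) to 69.3% (Ncl), with a median of 52.7% over all windows.

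The 4 libraries held between 18206584 and 20718690 expected counts, and a count of one of the 10 genes in a library lay between 733 and 64679. Control library 1 stood apart from the other 3. The Pearson's r of its log2 CPM over the tested genes (genes are no independent replicates) was between 0.825 and 0.844 with the treated libraries, against 0.912 to 0.926 for control library 2. It was 0.887 between the control libraries and 0.931 between the treated libraries. Which control library is less typical of control embryos cannot be told from these values. Maternal oocyte transcripts, 18 genes written as a list, summed to 2487 CPM in control library 1, 6535 in control library 2, and 13089 and 9680 in treated libraries 1 and 2. Two-cell genes such as Zscan4c, 12 in all, summed to 2767, 6201, 8103 and 8078 CPM in the same order. Both lists were therefore lowest in control library 1, and their part in the results below was not tested. Of 10 cumulus and granulosa markers, 5 (Ptx3, Foxl2, Inha, Inhba and Amh) were at 0 in every library and the sum of all lay between 2.16 and 7.98 CPM. The 6 sperm markers summed to between 1.43 and 5.43 CPM and the 8 blastocyst lineage markers to between 44.7 and 88.5 CPM. Because 1 library decides several values, the differences of the 10 genes are also given without control library 1 and without control library 2. Myc itself, the gene of the inhibited protein, measured 18.4 and 15.9 CPM in the control and 5.57 and 5.49 CPM in the treated libraries, a log2FC of -1.64 ± 0.50 (SE; adjusted p = 0.333, edgeR), with -1.51 and -1.74 without control library 1 and 2.

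All 10 genes were lower in 10074-G5-treated than in control embryos. In each of the 10, the lower control library exceeded the higher treated library in CPM (counts scaled to the library's TMM-adjusted total), an arrangement that 28.3% of all tested genes showed. The log2FC (treated minus control) ran from -1.30 for Nhp2 to -0.40 for Gar1, with a median of -1.0, against a median of 0.04 over all tested genes, of which 48.5% were lower. A log2FC below -1 was found for 5 of the 10 genes and 17.8% of all genes, and an unadjusted p under 0.05 in the lower direction for 6 of the 10 and 10.1% of all genes. After Benjamini-Hochberg adjustment over the 13549 genes, edgeR's quasi-likelihood test called 0 of the 10 genes, as it called 0% of all genes, and the adjusted p of the 10 genes lay between 0.333 and 0.606. The unadjusted p was under 0.05 for 1374 lower and 639 higher genes in all. DESeq2 with transcript lengths as offsets also called 0 of the 10, with 2.36% of 18208 genes called lower, and its adjusted p for them lay between 0.0667 and 0.548.

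**Figure D1:**
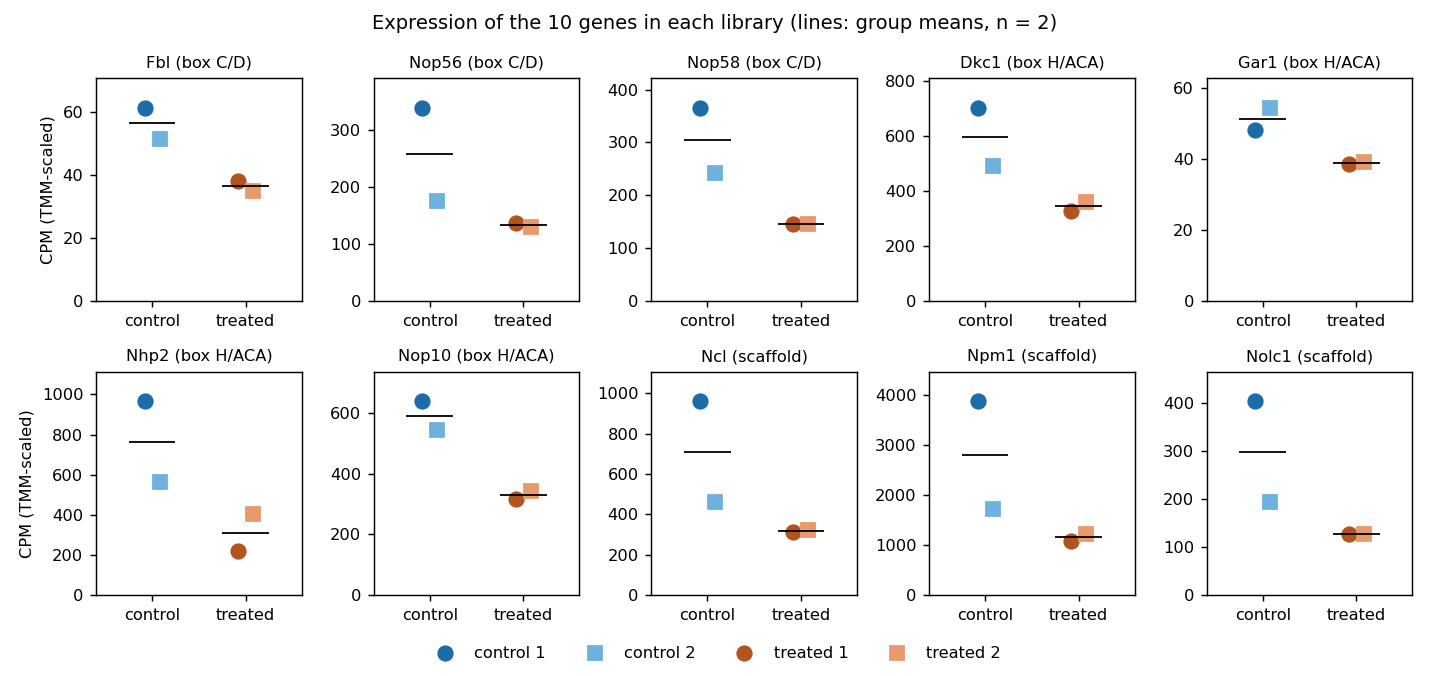
TMM-scaled CPM (linear axes from 0) of the 10 genes in each library, with circles for replicate 1, squares for replicate 2 and a black line at the mean of each group of 2 libraries. Every treated point lies below every control point, and the treated points lie close together except for Nhp2 (219 and 402 CPM).

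Among the box C/D proteins, fibrillarin, the methyltransferase encoded by Fbl (chr7:28168893-28179269), had 61.4 CPM in control library 1, 51.3 in control library 2, 38.1 in treated library 1 and 35.0 in treated library 2. The control mean of 56.3 ± 7.20 CPM (SD, n = 2, as for all means here) was 1.54 times the treated mean of 36.5 ± 2.20 CPM. The log2FC was -0.63 ± 0.38 (SE; adjusted p = 0.434, edgeR), and -0.48 without control library 1 and -0.75 without control library 2. Fbl thus had the second smallest difference of the 10 genes, and its groups were separated by a factor of 1.35 between the nearest libraries.

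Nop56 (chr2:130274367-130279313), a core protein that bridges the guide RNA and fibrillarin, had 340 and 176 CPM in the control libraries and 138 and 131 CPM in the treated ones. The treated libraries lay within 1.2-fold of each other, whereas control library 1 was 1.94 times control library 2. The log2FC was -0.94 ± 0.42 (SE; adjusted p = 0.343, edgeR) and shrank to -0.37 without control library 1, against -1.34 without control library 2. Its span overlaps that of Idh3b, a mitochondrial dehydrogenase subunit, by 5 bases. The log2FC of Idh3b was -0.93, with -0.61 and -1.19 without control library 1 and 2.

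Nop58 (chr1:59684961-59711510), the partner of Nop56 in the same particle, had 366 and 243 CPM in the control libraries and 146 CPM in each treated library. Here the groups lay farthest apart of the 10 genes, with the lower control library at 1.66 times the higher treated library. The log2FC was -1.06 ± 0.38 (SE; adjusted p = 0.333, edgeR), with -0.72 without control library 1 and -1.33 without control library 2.

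Dyskerin, the pseudouridine synthase of the box H/ACA snoRNP encoded by Dkc1 (chrX:75095854-75109776), had 705 and 493 CPM in the control libraries and 330 and 362 CPM in the treated libraries. The control mean was 1.73 times the treated mean, for a log2FC of -0.79 ± 0.38 (SE; adjusted p = 0.356, edgeR) and -0.50 without control library 1. Without control library 2 it was -1.03. The Dkc1 span shares 44 bases with Mpp1, a membrane-associated protein gene whose log2FC was -0.49, with -0.48 and -0.49 without control library 1 and 2.

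Gar1 (chr3:129824912-129831407), which joins the mature H/ACA particle last, had 48.3 and 54.5 CPM in the control libraries and 38.5 and 39.2 CPM in the treated libraries. It was the only one of the 10 genes with a lower CPM in control library 1 than in control library 2. In FPKM, which is not scaled with TMM factors, Nop10 was slightly lower there too (1215 and 1229). Its log2FC was the smallest, at -0.40 ± 0.38 (SE; adjusted p = 0.606, edgeR), and it was larger without control library 1 (-0.47) than without control library 2 (-0.31). The nearest libraries of the groups differed by a factor of 1.23.

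Nhp2 (chr11:51619773-51623718), an RNA-binding subunit of the H/ACA particle, had 966 and 563 CPM in the control libraries and 219 and 402 CPM in the treated libraries. Treated library 2 was 1.84 times treated library 1, the widest gap between treated libraries among the 10 genes, and the groups still did not overlap. The control mean of 764 ± 285 CPM was 2.46 times the treated mean of 311 ± 130 CPM, the largest fold of the 10. The log2FC was -1.30 ± 0.47 (SE; adjusted p = 0.333, edgeR), and leaving out 1 library moved it between -0.84 (without control library 1) and -1.81 (without treated library 2), with -1.64 without control library 2. Nhp2 shares 46 bases with the neighbouring Rmnd5b, which had 77.0 and 51.0 CPM in the control and 17.1 and 19.7 CPM in the treated libraries, a log2FC of -1.80 and an adjusted p of 0.0124 with DESeq2 (0.333 with edgeR, 0.00101 to 0.992 over all alternatives). The log2FC of Rmnd5b was -1.45 without control library 1 and -2.07 without control library 2. Whether reads were assigned by strand is not given in the sources used here, so reads from these shared bases cannot be told apart.

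Nop10 (chr2:112261926-112262898), the small protein that holds dyskerin and Nhp2 together, had 639 and 543 CPM in the control libraries and 318 and 344 CPM in the treated libraries. Both groups were tight, with control libraries 1.18-fold and treated libraries 1.08-fold apart, and the nearest libraries of the groups differed by a factor of 1.58. The log2FC of -0.84 ± 0.36 (SE; adjusted p = 0.335, edgeR) depended little on control library 1, at -0.70 without it and -0.95 without control library 2.

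The 3 scaffold genes had log2FC values within a narrow range, from -1.28 to -1.16, and the widest gaps between the control libraries. Nucleolin, the abundant RNA-binding protein encoded by Ncl (chr1:86344719-86359455), had 960 and 461 CPM in the control libraries and 313 and 324 CPM in the treated libraries. Its log2FC was -1.16 ± 0.45 (SE; adjusted p = 0.333, edgeR), -0.52 without control library 1 and -1.59 without control library 2.

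Nucleophosmin, the oligomeric histone and ribosome chaperone encoded by Npm1 (chr11:33152498-33164142), had 3873 and 1721 CPM in the control libraries and 1081 and 1227 CPM in the treated libraries. Control library 1 was 2.25 times control library 2, a gap nearly as wide as the fold between the group means (2.42). The log2FC of -1.28 ± 0.48 (SE; adjusted p = 0.333, edgeR) became -0.56 without control library 1 and -1.75 without control library 2. Npm1 has processed copies elsewhere in the genome, so that reads may have been lost when the authors kept uniquely mapped reads.

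Nolc1 (chr19:46075847-46085543), a chaperone that carries snoRNPs between Cajal bodies and the nucleolus, had 403 and 194 CPM in the control libraries and 128 CPM in each treated library. Its log2FC was -1.22 ± 0.44 (SE; adjusted p = 0.333, edgeR), -0.59 without control library 1 and -1.66 without control library 2. The 3 scaffold genes thus followed 1 pattern across the libraries, highest in control library 1, intermediate in control library 2 and lowest in both treated libraries. This order of CPM was not particular to them, as all of the 10 genes except Gar1 had it.

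How far the result rests on control library 1 can be read from all 10 genes together. In CPM, control library 1 exceeded control library 2 in 9 of them, by more than 1.5-fold in 6, as in 29.3% of all tested genes. The treated libraries lay within 1.2-fold of each other in 9 of the 10, as in 36.6% of all. Without control library 1, all 10 genes remained lower in treated embryos, as did 47% of all genes. For the 10 genes this sign was nearly fixed in advance, since the groups of each did not overlap. Without control library 1 the log2FC ran only from -0.84 to -0.37 with a median of -0.54, and 0 of the 10 lay below -1. The unadjusted p was then under 0.05 for 7 of the 10, against 7.36% of 14721 genes in the lower direction, and edgeR's adjusted p lay between 0.214 and 0.506. Without control library 2, edgeR called 7 of the 10 genes lower (Nop56, Nop58, Dkc1, Nhp2, Ncl, Npm1 and Nolc1), as it then called 14.1% of 14669 genes, and the median was -1.34. In these fits the lone control library is assumed to vary like the treated libraries. When only library totals were used for scaling, the median of the 10 genes was -0.83 and that of all tested genes 0.17.

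**Figure D2:**
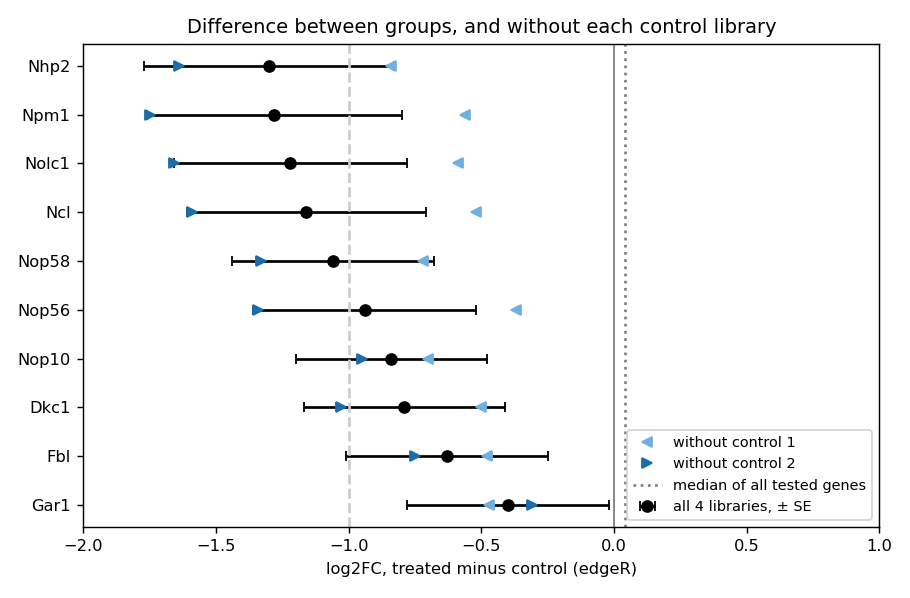
log2FC (treated minus control) of the 10 genes by edgeR, with black points and bars for all 4 libraries ± SE and triangles for the value without control library 1 or 2. The solid line is 0, the dashed line -1 and the dotted line the median of all tested genes (0.04), and every symbol lies left of 0, with the triangles of Npm1 (-1.75 and -0.56) among the farthest apart.

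Levels were compared between genes as FPKM, which the authors scaled to transcript length. Npm1 was highest in every group, with 3160 and 1686 FPKM in the control libraries and 1068 and 1230 in the treated libraries, and it ranked 52 among all listed genes by mean FPKM. Nop10 followed with 1215, 1229, 713 and 792 FPKM in the same order of libraries, and Nhp2 with 1163, 807, 312 and 587. A middle tier held Dkc1 (244, 203, 136 and 152 FPKM), Nop58 (188, 148, 89.3 and 90.9) and Nop56 (184, 113, 88.4 and 86.0). The genes with the lowest levels were Ncl (105, 60.0, 40.8 and 43.0 FPKM), Nolc1 (104, 59.6, 39.4 and 40.0), Fbl (60.9, 60.5, 44.8 and 42.0) and Gar1 (42.5, 57, 40.2 and 41.8). Even Gar1 had a mean FPKM above that of 90.7% of the listed genes.

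In the control libraries the ranges of neighbours in this order did not overlap except for Nop58 and Nop56, Ncl and Nolc1, and Nolc1 and Fbl. The 6 highest genes kept their order in the treated libraries, whereas the 4 lowest, which spanned 82.5 to 49.8 FPKM in control means, lay between 43.4 and 39.7 FPKM in treated means in the order Fbl, Ncl, Gar1 and Nolc1, with the ranges of Fbl and Ncl and of Ncl and Gar1 overlapping. The order was the same with TPM or with FPKM scaled to each library's median. The level of Ncl rests on the gene model: its effective length in the files was 7977 to 7983 bases, and a shorter model would raise its FPKM. Fbl also differed between scales, since its control libraries were equal in FPKM within 1 unit but 1.2-fold apart in CPM, as FPKM is not scaled with TMM factors (0.873 and 1.04 for the control libraries).

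**Figure D3:**
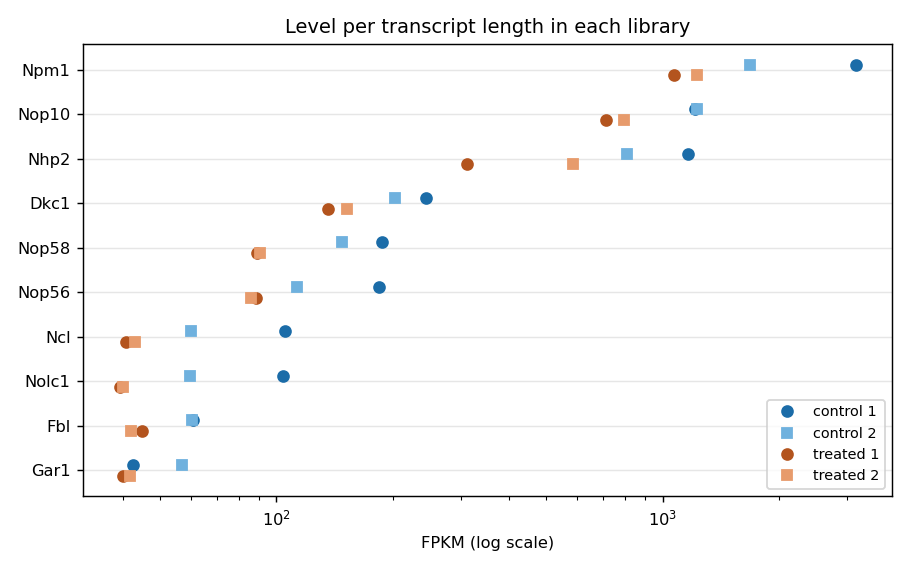
FPKM (log axis) of the 10 genes in each library, ordered by control mean, with blue symbols for control and orange symbols for treated libraries. Npm1, Nop10 and Nhp2 lie at 312 FPKM or more in every library, and the 4 lowest genes converge between 39.4 and 44.8 FPKM in the treated libraries.

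The FPKM of the proteins of a particle was also summed, to see whether the balance of its subunits differed between the groups. The box C/D genes summed to 433 and 322 FPKM in the control and 222 and 219 FPKM in the treated libraries, the box H/ACA genes to 2664, 2295, 1201 and 1573 FPKM, and the scaffold genes to 3369, 1805, 1148 and 1313 FPKM. In each sum the groups did not overlap. This was fixed in advance, since the FPKM of each of the 10 genes did not overlap between the groups either. Within the C/D sum the share of Fbl was 14.1% and 18.8% in the control and 20.1% and 19.2% in the treated libraries, with control library 2 much nearer to the treated libraries than to control library 1. The share of Nop58 was 43.5% and 46.1% in the control and 40.1% and 41.5% in the treated libraries, and that of Nop56, at 42.4%, 35.1%, 39.7% and 39.3%, overlapped. These shares were not tested, and those of 1 sum depend on each other. Within the H/ACA sum the share of Nhp2 was 43.7%, 35.1%, 26.0% and 37.3% and that of Nop10 was 45.6%, 53.5%, 59.4% and 50.4%, so that the shares of these 2 genes overlapped between the groups. The shares of the others did not overlap and were higher in the treated libraries, with 9.14% and 8.84% against 11.3% and 9.66% for Dkc1 and 1.59% and 2.49% against 3.35% and 2.66% for Gar1. The nearest libraries of the groups were close, at 9.14% and 9.66% for Dkc1 and 2.49% and 2.66% for Gar1. The H/ACA shares were not tested either, and they depend on each other in the same way. Npm1 made up 93.0% to 93.8% of the scaffold sum. The median log2FC was -0.94 for the C/D genes, -0.81 for the H/ACA genes and -1.22 for the scaffold genes, and -0.48, -0.60 and -0.56 without control library 1. The 10 genes together took 0.729% and 0.467% of all counts in the control libraries and 0.286% and 0.332% in the treated libraries.

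**Figure D4:**
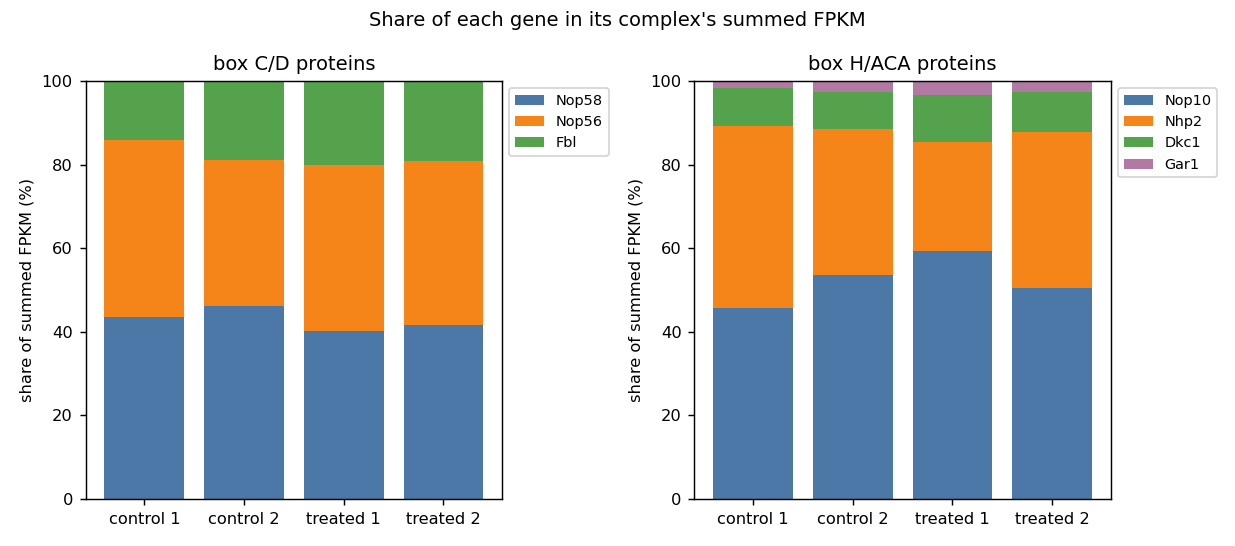
Share (%) of each gene in the summed FPKM of the box C/D proteins (left) and the box H/ACA proteins (right) in each library, as stacked bars from 0 to 100. Fbl is smallest in control library 1 (14.1%), and the share of Nhp2 is smallest in treated library 1 (26.0%).

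Factors that build snoRNPs were listed alongside, and 11 of 11 were lower in treated embryos, 9 of them with groups that did not overlap. Over all tested genes, 48.5% were lower and 28.3% were lower without overlap. The median log2FC of the 11 was -0.80 (-0.28 without control library 1). For 3 of the 11, edgeR gave an unadjusted p under 0.05, as for 10.1% of all tested genes in the lower direction. Znhit3, an assembly factor of the box C/D particle, had 2616 and 1213 CPM in the control and 453 and 565 CPM in the treated libraries, a log2FC of -1.91 ± 0.48 (SE), and was called by DESeq2 (adjusted p = 0.00674) but not by edgeR (0.333). Naf1, which holds the place of Gar1 in the immature H/ACA particle, had 32.3, 9.11, 4.17 and 4.58 CPM, a log2FC of -2.24 ± 0.69 (SE) and an adjusted p of 0.0334 with DESeq2 and 0.333 with edgeR. Gar1 and Naf1, which occupy the same place in turn, thus had a log2FC of -0.40 and -2.24, a difference between genes that was not tested. Without control library 1, Znhit3 measured -1.24 and Naf1 -1.04, and over all alternatives the adjusted p ran from 0.000304 to 0.992 for Znhit3 and from 0.00127 to 0.992 for Naf1. Nhp2l1 (Snu13), the protein that binds the box C/D guide first, had 4356, 2414, 1291 and 1725 CPM and a log2FC of -1.17 ± 0.45 (SE; adjusted p = 0.333, edgeR). For this gene the value was -0.66 without control library 1 and -1.53 without control library 2.

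Of 8 factors for the cap, end and transport of snoRNAs and telomerase RNA, Tert did not pass the filter. The median log2FC was -1.03, and 6 of the 7 tested were lower, against 48.5% of all tested genes. By edgeR, 10.1% of all tested genes and 4 of these 7 were lower at an unadjusted p under 0.05. These were Phax, the export adaptor (-1.44 ± 0.49), Coil, the Cajal body protein coilin (-1.33 ± 0.42), Xpo1, the exportin (-1.13 ± 0.43), and Tgs1, which trimethylates the cap (-1.03 ± 0.38), each log2FC ± SE with an edgeR adjusted p of 0.333. Without control library 1 they measured -0.67, -0.96, -0.61 and -0.65, and without control library 2 -1.93, -1.61, -1.50 and -1.32. DESeq2 called 0 of the 7, and the median was -0.63 without control library 1.

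Of 12 other nucleolar scaffold genes and nucleoplasmin relatives, 10 were lower and 2 higher, against 48.5% lower over all tested genes. The median log2FC of the 12 was -0.88 (-0.48 without control library 1). The lower genes of this list with an unadjusted edgeR p under 0.05 (10.1% of all tested genes) were Mybbp1a (-1.90 ± 0.52), Ddx21, an RNA helicase (-1.80 ± 0.47), Gnl3, nucleostemin (-1.60 ± 0.50), and Nifk (-1.05 ± 0.43), all log2FC ± SE. DESeq2 called the first 3, with adjusted p of 0.0185, 0.0151 and 0.032, as it called 2.36% of 18208 genes lower. edgeR called none of them (adjusted p = 0.333 each). Over all alternatives the adjusted p ran from 0.000629 for Mybbp1a, 0.000417 for Ddx21 and 0.000377 for Gnl3 up to 0.992 for each, and without control library 1 their log2FC was -1.11, -1.08 and -0.78. Nifk measured -0.57 without control library 1 and -1.41 without control library 2. Npm2, the oocyte relative of Npm1 that acts on chromatin and on the nucleolus precursor bodies of the egg, was higher in treated embryos, with 58.6 and 116 CPM in the control and 212 and 164 CPM in the treated libraries, a log2FC of 1.10 ± 0.44 (SE; adjusted p = 0.333, edgeR). It was 0.71 without control library 1 and 1.68 without control library 2. Npm1 and Npm2 thus had opposite orders across the libraries. Npm2 is also in the list of maternal oocyte transcripts, of which 16 of 18 were higher, against 6973 of the 13549 tested genes.

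Of 5 genes for enzymes that modify the listed proteins, 5 were lower, against 48.5% of all tested genes, with a median log2FC of -0.44. The values ran from -1.31 to -0.03, and 2 of the 5 were lower without overlap, against 28.3% of all tested genes. By edgeR, 0 of the 5 had an unadjusted p under 0.05. Prmt1, the main arginine methyltransferase of fibrillarin and nucleolin, was at -1.31 ± 0.68 and Prmt5 at -0.79 ± 0.49 (log2FC ± SE; adjusted p = 0.384 and 0.438, edgeR). Without control library 1 they measured -0.66 and -0.09, and without control library 2 -1.76 and -1.26. The median was -0.09 without control library 1, and 0 of the 5 were called by DESeq2, which gave Prmt1 no adjusted p.

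Across the 4 libraries, each gene's log2 CPM was centred on its own mean to compare shapes. The median of the 10 genes was 0.86 and 0.15 in the control libraries and -0.49 and -0.42 in the treated libraries. Nop58 was nearest to this median (Euclidean distance 0.129) and Gar1 (0.843) and Nhp2 (0.672) were farthest from it. Among 5146 other tested genes whose FPKM averaged 10 or more, the shapes most like it were those of Ccrn4l (distance 0.0515), Tmem97 (0.0672), Psmb4 (0.0707), Cdc25c (0.0729) and Ubap2l (0.0779). Their log2FC lay between -1.04 and -0.99, and between -0.64 and -0.55 without control library 1. Because these genes were picked by shape over the same 4 libraries, such values were nearly fixed in advance and add no separate support. The lists of maternal oocyte transcripts and two-cell genes had the reverse shape, with centred medians of -1.24 and -1.33 in control library 1 and between 0.52 and 0.63 in the treated libraries.

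**Figure D5:**
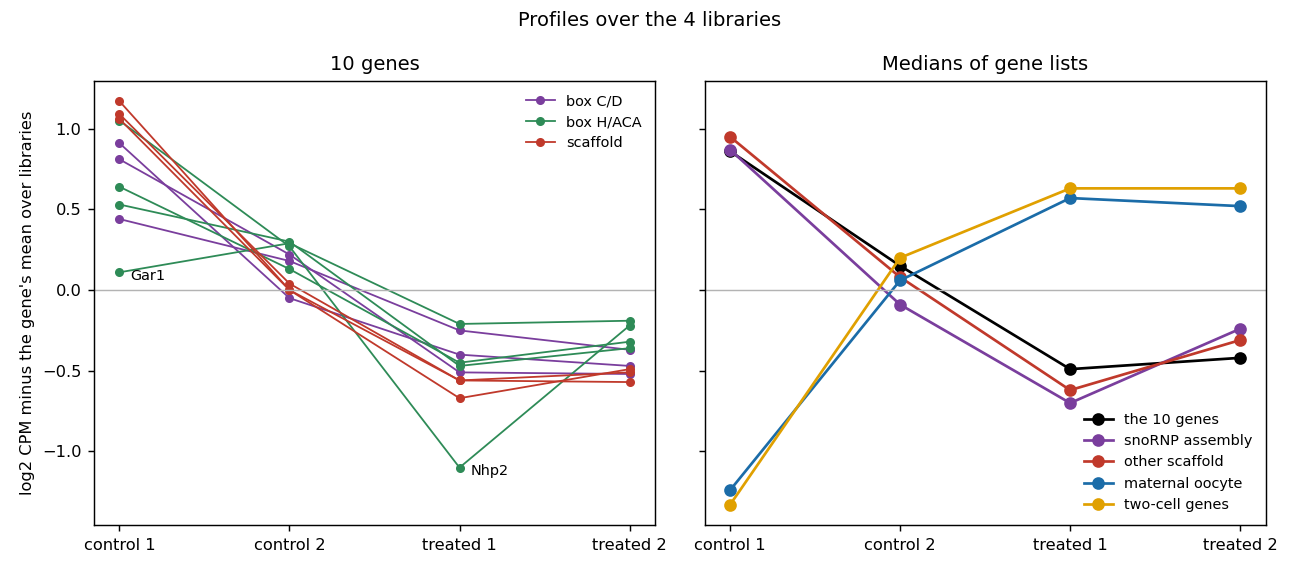
log2 CPM minus the gene's mean over the 4 libraries, for each of the 10 genes (left, coloured by particle) and as medians of gene lists (right). Gar1 (0.11 in control library 1) and Nhp2 (-1.10 in treated library 1) leave the common shape, and the maternal and two-cell lists run opposite to it.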

How the data were processed

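Polyadenylated RNA of 2 control and 2 treated pools of 10 late two-cell embryos was grouped by the labels. The authors prepared the libraries with a SMART-Seq kit, aligned the read pairs to mm10 with STAR (2.7.10), retained reads that mapped to 1 place and estimated gene counts with RSEM (1.3.3). The deposited expected counts are RSEM estimates without normalization. The deposited FPKM and TPM were scaled by the authors to effective transcript length and library, and the effective lengths were deposited beside them. Depth was 18206584 to 20718690 expected counts, and intervals over 2 libraries cover the spread of these pools only. PCR copies were not separated from molecules.

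Expected counts were rounded, filtered with filterByExpr (minimum count 10, minimum total 15), scaled with TMM factors of 0.873 and 1.04 (control) and 1.04 and 1.06 (treated), and tested with edgeR 4.0.16 (R 4.3.3) by the quasi-likelihood test with Benjamini-Hochberg adjustment. A call required |log2FC| > 1 and adjusted p under 0.05. edgeR's common coefficient of biological variation was 0.557. An exact permutation test of 2 libraries against 2 cannot go below p = 0.333 (two-sided) and was not used. Log2 CPM took a prior count of 2. DESeq2 1.42.0 (with and without transcript lengths), limma 3.58.1 on log2(FPKM + 1) or log2(FPKM + 0.1) at a mean FPKM of at least 1 or without that filter, other scalings and filters, a replicate block, the adjusted p alone and each library left out were alternatives. The functions were tested on simulated data. Coordinates are from RefSeq GRCm38.p6, the build of mm10.

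The 10 genes and all lists were chosen with earlier results of these data known, from general knowledge. Named from the lists were genes with an unadjusted edgeR p under 0.05 or a DESeq2 call, at most 6 a list, otherwise the 2 with the smallest p, together with Myc, the 5 genes of most similar profile, and noncoding genes inside the 10 genes. Outside this rule, the protein-coding genes whose span overlaps that of one of the 10 genes (Idh3b, Mpp1 and Rmnd5b) were also named. From the marker lists, genes were named after their values were seen.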

Additional observations from a re-analysis of the deposited data

How the results depend on the processing

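The 10 genes had 733 or more counts in every library, so that the spread between 2 pools a group, with control library 1 far from the others, limits these values more than depth. The log2FC of the 10 genes was negative in 140 of 140 values under 14 alternatives. As the groups of each gene did not overlap in CPM, this sign was nearly fixed in advance and adds no separate support. In 133 of the 140 values the call did not change. The other 7 became calls without control library 2. Over the fits without 1 library, edgeR called between 0 and 7 of the 10 genes, and their median log2FC lay between -1.34 (without control library 2) and -0.54 (without control library 1), against -1.0 with all libraries.

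Over all genes, edgeR called 0 lower and 0 higher, and the adjusted p alone also gave 0 and 0. DESeq2 called 437 lower and 87 higher, DESeq2 with transcript lengths 429 and 83, and edgeR without a filter on low counts 479 and 165. Leaving out 1 library gave between 1 (without control library 1) and 2065 (without control library 2) lower genes and between 1 and 2148 higher genes, at the same 2 extremes. The labels number the replicates in both groups. The deviations of same-numbered libraries from their group means had an r of -0.03 over the tested genes. With 1 such deviation a group, this cannot decide whether same-numbered libraries share a batch. With the replicate block edgeR called 32 lower and 12 higher genes and 0 of the 10 genes. The planned look at protein sequences was not run, as no protein sequences of the 10 genes were among the reference data used.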
